A study of Homo sapiens with 12 samples.

Results

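The solute carriers are the largest family of membrane transporters in human cells, and their genes were followed here in A549, an epithelial line from a human lung adenocarcinoma. Members were all rows of the expression table whose symbol has the form SLC, a family number, the letter A and a member number, whose level averaged 1 FPKM or more across the 12 libraries. FPKM counts sequenced fragments relative to transcript length and to the mapped total of the library, so levels of different genes can be compared. SLC7A11 was outside the rule. Of 333 rows with such a symbol, 160 genes qualified, 173 had a lower mean, and 41 of these were listed at 0 in every library. The members just inside the threshold were SLC10A7 (mean 1.01 FPKM), SLC1A1 (1.01 FPKM) and SLC30A3 (1.04 FPKM), and those just outside were SLC27A1 (0.975 FPKM), SLC19A3 (0.954 FPKM) and SLC6A17 (0.832 FPKM). In 7 members the mean of at least 1 group lay under 1 FPKM.

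Wild-type A549 cells and a PARP3-/- line derived from them received DMSO vehicle or 1 μM pyridostatin for 24 h, and total RNA from 3 cultures of each of the 4 groups was sequenced. PARP3 is a poly(ADP-ribose) polymerase with roles in DNA break repair, and pyridostatin is a synthetic ligand that holds DNA in the folded G-quadruplex (G4) form. The PARP3-/- line was made with Cas9 directed at the first exon and was cloned by serial dilution, so genotype and clone cannot be told apart. The design asks whether PARP3 loss alters transcription, with and without a G4 ligand.

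Solute carriers move nutrients, ions and metabolites down their gradients or against them by coupling to a second solute, without burning ATP themselves. Families are numbered by sequence, and a family often handles one kind of cargo. Carriers of the plasma membrane bring in glucose and amino acids, carriers of the inner mitochondrial membrane exchange adenine nucleotides, phosphate and organic acids, and others serve lysosomes, endoplasmic reticulum and Golgi. Growing epithelial cancer cells are known for high demand on glucose, glutamine and leucine uptake.

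Depth was estimated, approximately, at 21900000 to 31000000 reads per library, and members took 0.716% to 0.765% of the summed FPKM of each library. Within groups, libraries correlated at r = 0.956 to 0.969 over all genes. Wild-type vehicle replicate 2 stood apart in its FPKM sum of 563473, against 492839 to 525124 in the other libraries, and it held the highest value of all 12 for 7 of the 10 most abundant members. The counts of members called are therefore also given without that library. The keratins KRT8 (2766 to 3375 FPKM) and KRT18 were abundant, CDH1 lay at 9.85 to 16.7 FPKM and EPCAM at 0.879 to 2.36 FPKM, while the alveolar markers SFTPB (0 in all 12 libraries), SFTPC, SFTPA1, SFTPA2, SFTPD and NKX2-1 were at or near 0. PARP3 itself was not lower in the libraries labelled PARP3-/-: its level was 3.73 ± 0.293 FPKM in wild-type vehicle, 4.41 ± 0.447 in PARP3-/- vehicle, 3.79 ± 0.243 in wild-type pyridostatin and 4.58 ± 0.245 in PARP3-/- pyridostatin libraries (SD, n = 3 each, as for every such value). A gene-level value cannot show a deletion limited to the first exon.

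Expression of the family was steep. The median member had a mean of 10.1 FPKM, 76 members lay between 10 and 100 FPKM, 79 below 10 FPKM, and 5 above 100 FPKM. These 5 held 41.7% of the summed member FPKM: the adenine nucleotide translocator SLC25A5 (mean 491.8 FPKM), the amino acid carrier heavy chain SLC3A2 (346.9 FPKM), its light chain SLC7A5 (330.4 FPKM), the mitochondrial phosphate carrier SLC25A3 (304.0 FPKM) and the glutamine carrier SLC1A5 (120.8 FPKM). By class, 36 mitochondrial carriers (family 25) held 37.3% of the sum, 23 carriers of amino acids and neurotransmitters 26.8%, 16 zinc carriers 9.23%, and 19 ion exchangers and co-transporters 5.22%. The other leading genes were the mitochondrial carrier SLC25A39 (97.3 FPKM), the zinc importer SLC39A1 (86.2 FPKM), the adenine nucleotide translocator SLC25A6 (84.4 FPKM), the chloride and bicarbonate exchanger SLC4A2 (84.1 FPKM) and the riboflavin carrier SLC52A2 (57.01 FPKM). Leaders of the smaller classes were the glucose carrier SLC2A1 (53.2 FPKM), the fatty acid carrier SLC27A2 (46.9 FPKM), SLC35A4 of the nucleotide sugar family (41.6 FPKM), the phosphate importer SLC20A1 (38.5 FPKM), the nucleoside carrier SLC29A1 (37.4 FPKM), SLC16A5 of the monocarboxylate family (24.1 FPKM), the organic cation carrier SLC22A3 (23.5 FPKM), the copper importer SLC31A1 (14.9 FPKM) and the heme carrier SLC48A1 (12.97 FPKM). In GENCODE, the SLC39A1 model shares 71.0% of its 75-base stretches with other genes, most of all with an overlapping read-through transcript, so its level is uncertain.

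The promoters of the 3 abundant amino acid carriers are shown because pyridostatin binds G4 structures, which can form where 4 runs of guanines lie close together. Each window runs from 250 bases before to 50 bases after an annotated start in RefSeq on GRCh38.p14, is read 5′ to 3′ on the gene's strand, and has in capitals the matches to 4 runs of at least 3 G parted by 1 to 7 bases, on either strand (a match on the other strand reads as runs of C). SLC7A5 is at chr16:87869458-87869757 on the minus strand, SLC3A2 at chr11:62881449-62881748 on the plus strand (1 of 3 listed starts) and SLC1A5 at chr19:46788545-46788844 on the minus strand (1 of 3 listed starts).
SLC7A5: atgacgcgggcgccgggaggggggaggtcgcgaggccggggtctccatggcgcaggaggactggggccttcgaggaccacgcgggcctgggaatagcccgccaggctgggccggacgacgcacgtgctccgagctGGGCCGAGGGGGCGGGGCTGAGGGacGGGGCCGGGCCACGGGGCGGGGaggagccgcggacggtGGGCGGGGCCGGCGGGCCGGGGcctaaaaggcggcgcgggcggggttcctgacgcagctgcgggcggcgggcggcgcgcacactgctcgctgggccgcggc
SLC3A2: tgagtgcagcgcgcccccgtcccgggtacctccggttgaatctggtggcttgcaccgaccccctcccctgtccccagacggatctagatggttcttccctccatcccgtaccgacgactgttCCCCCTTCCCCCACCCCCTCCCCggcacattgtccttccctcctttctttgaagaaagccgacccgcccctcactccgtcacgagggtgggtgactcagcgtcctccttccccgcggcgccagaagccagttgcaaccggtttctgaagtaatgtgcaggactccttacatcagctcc
SLC1A5: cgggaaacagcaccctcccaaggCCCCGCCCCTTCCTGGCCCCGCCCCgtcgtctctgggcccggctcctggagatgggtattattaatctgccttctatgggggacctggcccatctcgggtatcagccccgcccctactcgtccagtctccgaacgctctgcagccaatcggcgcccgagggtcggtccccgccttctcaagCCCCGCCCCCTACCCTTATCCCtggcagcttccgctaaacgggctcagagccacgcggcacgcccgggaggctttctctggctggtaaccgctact
The SLC7A5 window held 3 matches on the strand shown, the SLC3A2 window 1 on the other strand and the SLC1A5 window 2 on the other strand. A window was at hand for 129 members, and 52 of these (40.3%) held the pattern, against 24.1% of 27305 windows of all genes and 30.4% of 15843 windows of protein-coding genes. Neither background was limited to genes averaging 1 FPKM or more, as the members were, so these shares are not like for like. A match is a feature of the letters and not a measured structure.

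Without pyridostatin, PARP3-/- cells differed from wild type in single carriers of sugars, amino acids, fatty acids and ions. The glucose carrier SLC2A3 fell most, by 2.49-fold, followed by the basic amino acid carrier SLC7A7 and the sugar family member SLC45A4, and the abundant SLC7A5, SLC3A2 and SLC1A5 were lower by 1.33-, 1.26- and 1.15-fold. The fatty acid carrier SLC27A2 and the lysosomal amino acid exporter SLC36A1 were among those that rose most. In all, 20 of 160 members rose and 8 fell (limma on log2(FPKM + 1), Benjamini-Hochberg adjusted p under 0.05 over 11881 genes), against a background of 6.4% of all genes higher and 3.01% lower. The 20 include SLC8A1 and SLC1A1, members only through their PARP3-/- libraries, and SLC24A1, with a wild-type vehicle mean under 1 FPKM. The median log2 fold change was 0.02 over the members and 0.01 over all genes. Only 1 member, SLC2A3, also passed the additional threshold of an absolute log2 fold change above 1, which 0.362% of all genes passed. That count belongs to the log2(FPKM + 1) scale, which understates changes of low genes. Under an alternative setting SLC8A1 reached 1.02. The libraries of the 2 genotypes did not overlap for 33.1% of the members (38 higher and 15 lower), against 24.2% of all genes.

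**Figure D1:**
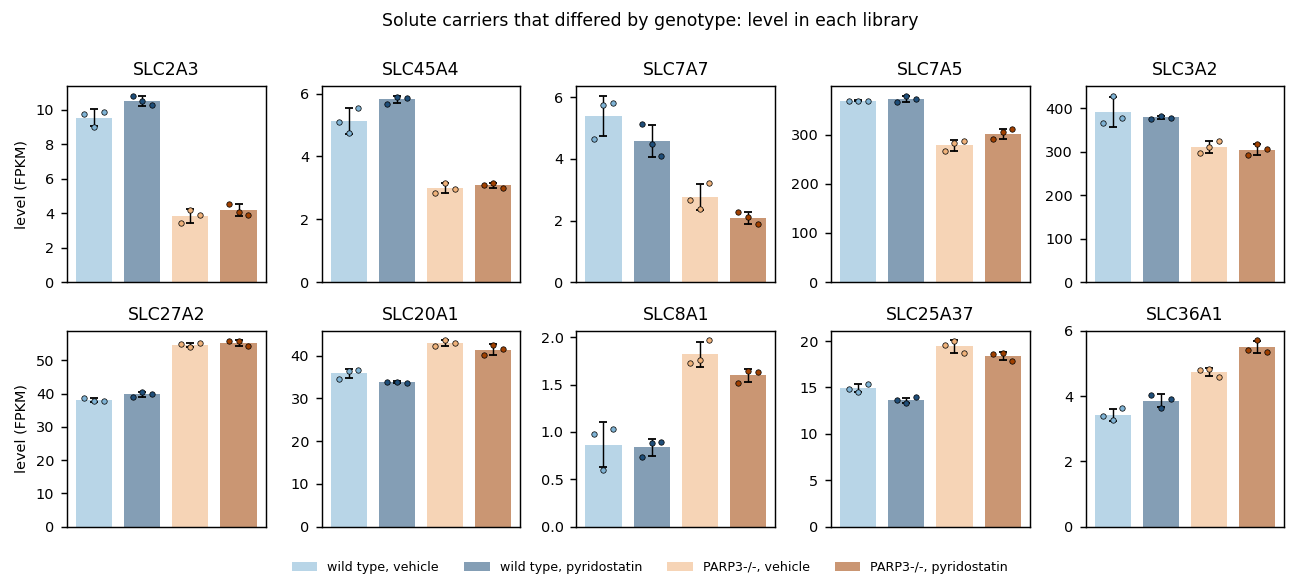
Level in FPKM (vertical axes, each from 0) of 10 solute carriers chosen among those that differed by genotype, in the 4 groups. Points are the 3 libraries, bars the mean and whiskers the SD; for all 10 genes the PARP3-/- libraries sit wholly below (SLC2A3, SLC45A4, SLC7A7, SLC7A5, SLC3A2) or above (the others) the wild-type libraries of the same treatment.

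Among 11 sugar carriers, 2 fell, none rose and 9 did not pass the test with vehicle, beside 3.01% of all genes lower and 6.4% higher. SLC2A3 encodes GLUT3, a high-affinity glucose carrier, and lay at 9.77, 8.98 and 9.89 FPKM in wild-type vehicle libraries, 3.42, 4.19 and 3.89 in PARP3-/- vehicle, 10.8, 10.5 and 10.3 in wild-type pyridostatin and 4.56, 4.09 and 3.89 in PARP3-/- pyridostatin libraries. Every PARP3-/- library was below every wild-type library. The log2 fold change was -1.13 (SE 0.0672, limma adjusted p = 1.9e-06) with vehicle and -1.16 (adjusted p = 1.59e-06) with pyridostatin, and the mean level was 2.49- and 2.52-fold lower. Of the 75-base stretches of SLC2A3, 13.02% occur in other genes, and its near-copy SLC2A14 shares the most. SLC2A14 stayed under the threshold, with 0.930 ± 0.0658 FPKM in wild-type and 0.450 ± 0.112 FPKM in PARP3-/- vehicle libraries, so reads of the pair may be split. SLC45A4, of a family of proton-coupled sugar carriers, fell from 5.13 ± 0.404 to 2.99 ± 0.161 FPKM with vehicle (log2 fold change -0.62, adjusted p = 3.13e-05) and from 5.82 ± 0.119 to 3.08 ± 0.0854 FPKM with pyridostatin (-0.74, adjusted p = 9.63e-06). By contrast SLC2A1, which encodes the widespread glucose carrier GLUT1 and was the more abundant by far, had 53.96 ± 1.59 FPKM in wild-type and 52.1 ± 2.52 FPKM in PARP3-/- vehicle libraries (log2 fold change -0.05, 95% interval -0.15 to 0.05).

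Of 23 amino acid carriers 4 fell and 3 rose with vehicle, beside 3.01% of all genes lower and 6.4% higher. SLC7A5 is LAT1, which takes up leucine and other large neutral amino acids, and needs the heavy chain SLC3A2 (CD98) to reach the membrane. Its level was 368, 369 and 369 FPKM in wild-type vehicle, 266, 282 and 287 in PARP3-/- vehicle, 366, 379 and 373 in wild-type pyridostatin and 291, 305 and 311 in PARP3-/- pyridostatin libraries. The genotypes did not overlap in either treatment. The log2 fold change was -0.41 (SE 0.0398, adjusted p = 7.46e-05) with vehicle and -0.30 (adjusted p = 0.000648) with pyridostatin. For SLC3A2 the libraries gave 366, 429.8 and 379 FPKM in wild-type vehicle, 298, 312 and 325 in PARP3-/- vehicle, 377, 383 and 379 in wild-type pyridostatin and 293, 317 and 306 in PARP3-/- pyridostatin cells. Both partners were lower in PARP3-/- cells, SLC3A2 by a log2 fold change of -0.33 (adjusted p = 0.00545) with vehicle and -0.31 (adjusted p = 0.00627) with pyridostatin. SLC7A7, another SLC3A2 partner, which exports basic amino acids, had 4.64, 5.74 and 5.81 FPKM in wild-type and 2.66, 2.38 and 3.23 FPKM in PARP3-/- vehicle libraries and then 5.13, 4.49 and 4.11 and 2.27, 2.13 and 1.88 FPKM with pyridostatin. The highest PARP3-/- library stayed below the lowest wild-type library, and the log2 fold changes were -0.77 (adjusted p = 0.000884) and -0.85 (adjusted p = 0.000408). The remaining SLC3A2 partner among the members, SLC7A6, had a log2 fold change of 0.00 (95% interval -0.13 to 0.12) with vehicle.

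SLC1A5, or ASCT2, is a main route of glutamine into cancer cells. Its level was 133, 153 and 138 FPKM in wild-type vehicle and 119, 125 and 125 FPKM in PARP3-/- vehicle libraries, without overlap (log2 fold change -0.20, adjusted p = 0.0347). With pyridostatin the genotype difference was -0.16 and missed the threshold (adjusted p = 0.0766). SLC7A2, a cationic amino acid carrier, and SLC1A4, a carrier of alanine, serine and cysteine, passed with pyridostatin and not with vehicle, at -0.34 (adjusted p = 0.0193) and -0.17 (adjusted p = 0.0394). Their vehicle values were -0.27 and -0.05, and the change between treatments did not pass the interaction test for either. In the other direction, SLC36A1, a proton-coupled exporter of small amino acids from lysosomes, rose from 3.42 ± 0.186 to 4.74 ± 0.134 FPKM with vehicle (log2 fold change 0.38, adjusted p = 0.000689) and from 3.86 ± 0.20 to 5.502 ± 0.193 FPKM with pyridostatin (0.42, adjusted p = 0.000292). The lysosomal glutamine carrier SLC38A7 (0.20, adjusted p = 0.0395) and the glutamate carrier SLC1A1 (0.24, adjusted p = 0.02895), from 0.844 to 1.18 FPKM, rose with vehicle. SLC1A1 reached a mean of 1 FPKM only through its PARP3-/- libraries, since both wild-type means were under it. The 23 genes summed to 1132 ± 25.5 FPKM in wild-type and 937 ± 27.5 FPKM in PARP3-/- vehicle libraries, a sum that SLC3A2, SLC7A5 and SLC1A5 dominate.

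Of 4 fatty acid carriers 1 passed in each treatment, beside 9.41% of all genes with vehicle and 10.9% with pyridostatin. SLC27A2, which imports and activates long-chain fatty acids, lay at 38.8, 37.6 and 37.7 FPKM in wild-type vehicle, 54.8, 53.97 and 55.2 in PARP3-/- vehicle, 39.04, 40.4 and 39.98 in wild-type pyridostatin and 55.7, 55.8 and 54.3 in PARP3-/- pyridostatin libraries. The spread within groups was small beside the step between genotypes, with log2 fold changes of 0.51 (adjusted p = 1.64e-06) and 0.46 (adjusted p = 3.31e-06). The other 3 fatty acid carriers did not pass. Of the monocarboxylate family, SLC16A4 was higher in PARP3-/- than in wild-type cells when both had pyridostatin (0.25, adjusted p = 0.00876).

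Ion exchangers and co-transporters rose in 6 of 19 cases with vehicle and in 5 with pyridostatin, against 6.4% and 7.07% of all genes. None passed the test as lower, against 3.01% and 3.85%. The risers include SLC8A1 in both treatments and SLC24A1 with vehicle, both with wild-type vehicle means under 1 FPKM. SLC8A1, the plasma membrane sodium-calcium exchanger, was at 0.972, 0.594 and 1.03 FPKM in wild-type vehicle and 1.73, 1.76 and 1.97 FPKM in PARP3-/- vehicle libraries. With pyridostatin it was at 0.7305, 0.883 and 0.897 and 1.52, 1.65 and 1.63 FPKM. It entered the 160 members through its PARP3-/- libraries, since both wild-type means were under 1 FPKM, so its rise of 0.60 (adjusted p = 0.00167) and 0.50 (adjusted p = 0.00497) is on a low base. The potassium-dependent sodium-calcium exchanger SLC24A1 (0.32 with vehicle, adjusted p = 0.0184) was close to 1 FPKM as well, with a wild-type vehicle mean under it. Of the cation-chloride co-transporter family, SLC12A9, SLC12A4 and SLC12A7 rose in both treatments, by 0.27, 0.20 and 0.18 with vehicle. The most abundant of that family, the sodium-potassium-chloride importer SLC12A2, had a mean of 22.1 ± 3.82 in wild-type and 17.6 ± 0.781 FPKM in PARP3-/- vehicle libraries. Its wild-type vehicle libraries gave 24.5, 17.7 and 24.2 FPKM, the low value in replicate 2. The log2 fold change was -0.30 with vehicle (adjusted p = 0.0971) and -0.32 with pyridostatin (adjusted p = 0.0721), neither past the threshold. With pyridostatin all PARP3-/- libraries lay below all wild-type libraries. The Golgi sodium-proton exchanger SLC9A7 rose by 0.24 with vehicle and 0.33 with pyridostatin (adjusted p = 0.00667). GENCODE places SLC12A4 on the same strand as the overlapping gene LCAT, so part of its level may belong to that gene.

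Mitochondrial carriers, the largest class, had 1 of 36 members higher and 1 lower in each treatment, where 9.41% of all genes passed with vehicle and 10.9% with pyridostatin. The iron carrier SLC25A37 (mitoferrin-1) rose from 14.9 ± 0.456 to 19.4 ± 0.698 FPKM with vehicle (log2 fold change 0.36, adjusted p = 0.000139) and from 13.6 ± 0.283 to 18.4 ± 0.431 FPKM with pyridostatin (0.41, adjusted p = 5.5e-05). The adenine nucleotide translocator SLC25A6 fell from 92.4 ± 6.85 to 78.3 ± 3.57 FPKM and from 90.8 ± 2.52 to 76.1 ± 2.66 FPKM (-0.23 and -0.25, adjusted p = 0.0214 and 0.0137). Its paralog SLC25A5 gave -0.11 with vehicle (95% interval -0.25 to 0.03) and SLC25A3 gave -0.12 (95% interval -0.25 to 0.02), neither past the threshold.

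The other classes gave smaller steps. Beside their counts, 6.4% of all genes rose and 3.01% fell with vehicle, and 7.07% and 3.85% with pyridostatin. Of 4 nucleoside carriers, the equilibrative carrier SLC29A2 fell, with log2 fold changes of -0.31 with vehicle (adjusted p = 0.00266) and -0.34 with pyridostatin (adjusted p = 0.00149), from 5.57 ± 0.264 to 4.28 ± 0.169 FPKM with vehicle, whereas SLC29A1 gave 0.07 (adjusted p = 0.447). In the same class SLC29A3 passed as higher in PARP3-/- cells with pyridostatin (0.25) and did not pass with vehicle. SLC20A1, which imports phosphate, rose by 0.25 (adjusted p = 0.00089) and 0.29 (adjusted p = 0.00034), from 35.9 ± 1.12 to 42.9 ± 0.754 FPKM with vehicle. Among 11 organic ion and peptide carriers, SLC22A17, a receptor for lipocalin-2, rose by 0.33 and 0.47, and SLC22A4, the ergothioneine carrier, by 0.28 and 0.34. SLC37A1, a sugar phosphate exchanger of the endoplasmic reticulum, rose by 0.25 and 0.32, the choline carrier family member SLC44A2 by 0.29 with vehicle and the hexose carrier family member SLC2A6 by 0.30 with pyridostatin. Of 16 zinc carriers 1 rose, SLC39A13, in both treatments, and none of 6 copper, iron and magnesium carriers passed in any comparison.

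**Figure D2:**
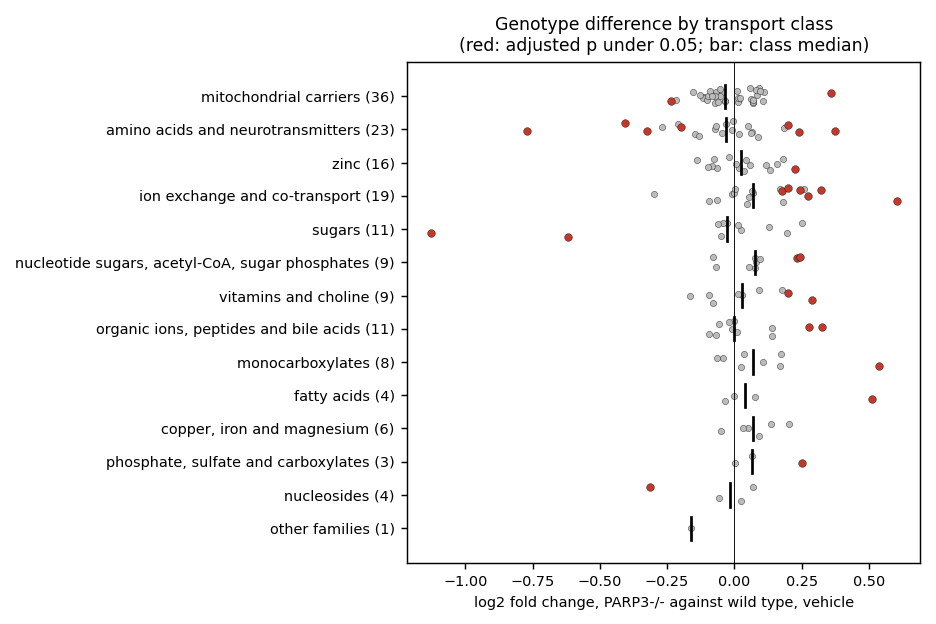
Genotype difference with vehicle for the 160 members (points), as log2 fold change of PARP3-/- against wild type on the log2(FPKM + 1) scale, with the members grouped by transport class and the class size in brackets. Red points passed the test and black bars are class medians; the mitochondrial class is bunched near 0 with 2 red points, and the largest falls are in the sugar and amino acid classes.

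With pyridostatin in both genotypes, 17 members were higher and 9 lower in PARP3-/- cells, against 7.07% and 3.85% of all genes, and SLC2A3 was again the one member past both thresholds (0.396% of all genes). This too belongs to the log2(FPKM + 1) scale, and under an alternative setting SLC7A7 reached -1.09. The 17 include SLC8A1, a member only through its PARP3-/- libraries. The vehicle and pyridostatin comparisons share no library. Both took their estimate of spread from the fit of all 12 libraries, so the call lists are not fully independent. The 21 members called in both, 75.0% of the vehicle list and 80.8% of the pyridostatin list, had the same direction each time, and over all 160 members the differences correlated at r = 0.896 (rho = 0.740), given as a description across genes.

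**Figure D3:**
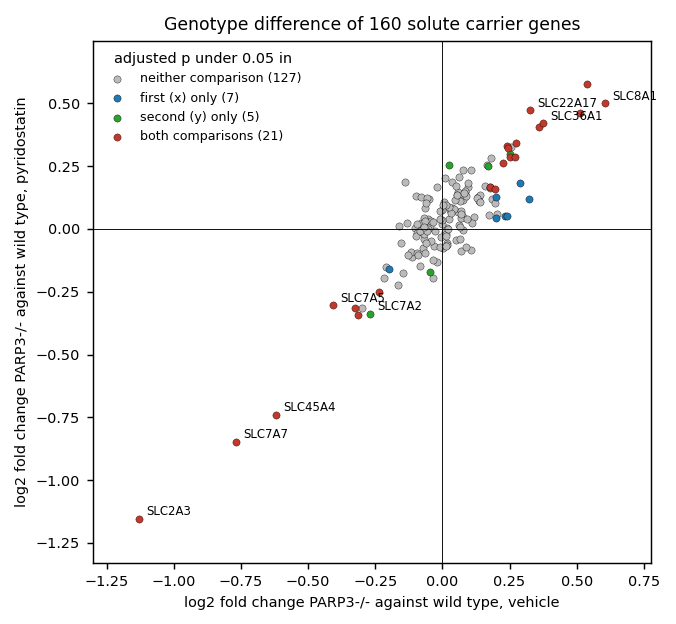
Log2 fold change of PARP3-/- against wild type with vehicle (horizontal) and with pyridostatin (vertical) for each of the 160 members. Colour gives the comparison in which a member passed the test. The 21 red points lie at the lower left and upper right, from SLC2A3 at -1.13 and -1.16 to SLC8A1 at 0.60 and 0.50. SLC8A1 is a member only through its PARP3-/- libraries.

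The counts depended on how libraries were scaled and on single libraries. With quantile normalization the split was 11 higher and 11 lower with vehicle and 14 and 12 with pyridostatin, and after moving every library to one shared median it was 10 and 12, then 13 and 12. The split over all genes moved too. In the main fit it was 760 higher and 358 lower with vehicle and 840 and 457 with pyridostatin. It became 685 and 501, then 803 and 613, with quantile normalization, and 561 and 524, then 676 and 596, with the median shift. Without wild-type vehicle replicate 2 there were 35 calls with vehicle and 42 with pyridostatin, while all genes called went to 13.8% and 19.3%. The vehicle count was 13 without PARP3-/- vehicle replicate 2, 16 without replicate 3 and 11 in a fit of only the 6 vehicle libraries, with 6.28%, 6.78% and 4.48% of all genes called. A fit of only the 6 pyridostatin libraries gave 33 members and 13.7% of all genes. Among the members with the largest changes, SLC2A3, SLC7A7, SLC45A4, SLC7A5, SLC29A2, SLC27A2, SLC36A1, SLC25A37 and SLC20A1 passed in both treatments under each alternative that tested them. The vehicle calls of SLC1A5, SLC3A2, SLC25A6, SLC12A9, SLC37A1, SLC22A4, SLC22A17, SLC24A1 and SLC44A2, and the pyridostatin calls of SLC1A4, SLC2A6, SLC7A2, SLC25A6 and SLC12A9, were lost under at least 1. With vehicle the losses ran from 1 of 20 alternatives for SLC3A2 to 13 of 19 for SLC22A17. With pyridostatin they ran from 3 of 20 for SLC25A6 and SLC12A9 to 13 of 20 for SLC1A4. Epithelial markers also moved with genotype: KRT19 rose and CDH1 and EPCAM fell in both treatments, 3 of 6 markers, and the 6 summed to 7218 to 8630 FPKM in wild-type and 6955 to 7698 FPKM in PARP3-/- vehicle libraries, and to 7582 to 7724 and 6912 to 7501 FPKM with pyridostatin. Of 6 markers of other cell types, COL1A1 rose (0.694 ± 0.130 to 1.31 ± 0.0419 FPKM with vehicle), SYP gave log2 fold changes of -0.12 with vehicle and -0.08 with pyridostatin that did not pass, and the 6 summed to 1.88 to 2.69 FPKM in wild-type and 2.55 to 2.71 FPKM in PARP3-/- vehicle libraries (2.04 to 2.18 and 2.44 to 2.62 FPKM with pyridostatin), with PTPRC, PECAM1, COL3A1 and DES near 0. Their part in the results was not tested, and in bulk RNA fewer cells of a kind and less RNA per cell cannot be told apart.

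With pyridostatin the share of solute carriers called was 4.38% in wild-type and 3.12% in PARP3-/- cells, against 4.17% and 5.56% of all genes. In wild-type cells 5 members rose and 2 fell, against 2.79% and 1.38% of all genes, and in PARP3-/- cells 3 rose and 2 fell, against 3.05% and 2.52%. No member passed both thresholds (0.0505% of all genes in wild type and 0.0673% in PARP3-/-). At an unadjusted p under 0.05 the limma fit gave 30 members in wild type and 25 in PARP3-/- cells, 18.8% and 15.6% against 20.3% and 19.6% of all genes. The median log2 fold change of the members was -0.02 in wild-type and 0.01 in PARP3-/- cells, against 0.00 over all genes in each.

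**Figure D4:**
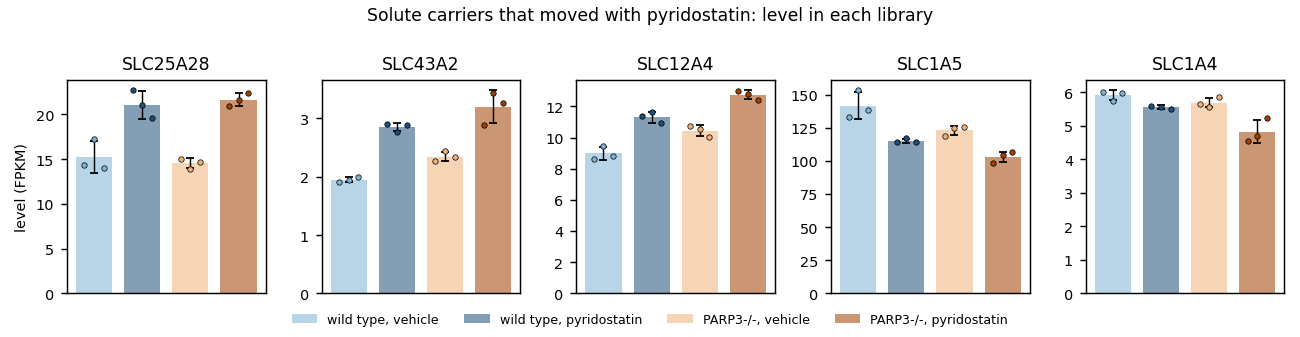
Level in FPKM (vertical axes, each from 0) of the 5 solute carriers that passed the pyridostatin test in PARP3-/- cells, in the 4 groups. Points are the 3 libraries, bars the mean and whiskers the SD; SLC25A28, SLC43A2 and SLC12A4 are higher and SLC1A5 lower with pyridostatin in both genotypes, and SLC1A4 is lowest in the PARP3-/- pyridostatin libraries.

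SLC25A28 encodes mitoferrin-2, which brings iron into mitochondria for heme and iron-sulfur clusters. Its level was 14.3, 17.3 and 14.04 FPKM in wild-type vehicle, 22.7, 20.998 and 19.6 in wild-type pyridostatin, 15.04, 13.9 and 14.7 in PARP3-/- vehicle and 20.9, 21.6 and 22.4 in PARP3-/- pyridostatin libraries. All treated libraries exceeded all untreated ones, with log2 fold changes of 0.45 (SE 0.07504, adjusted p = 0.008505) in wild-type and 0.54 (adjusted p = 0.00251) in PARP3-/- cells. Its relative SLC25A37, which differed by genotype, gave -0.12 (adjusted p = 0.104) and -0.08 (adjusted p = 0.317). SLC43A2, or LAT4, a carrier of branched-chain amino acids and methionine, went from 1.91, 1.95 and 1.99 to 2.901, 2.77 and 2.897 FPKM in wild-type and from 2.27, 2.44 and 2.33 to 2.89, 3.44 and 3.27 FPKM in PARP3-/- libraries. The treated and untreated libraries did not overlap, and the rise was 0.39 (adjusted p = 0.00354) and 0.33 (adjusted p = 0.00821). SLC12A4 (KCC1), a potassium-chloride co-transporter of cell volume control, gave 8.64, 9.47 and 8.82 FPKM in wild-type vehicle, 11.4, 11.6 and 10.9 in wild-type pyridostatin, 10.7, 10.6 and 10.04 in PARP3-/- vehicle and 12.99, 12.8 and 12.4 in PARP3-/- pyridostatin libraries. It rose by 0.30 (adjusted p = 0.00328) and 0.26 (adjusted p = 0.006198).

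Of the 5 most abundant carriers, SLC1A5 alone passed the pyridostatin test in either genotype. From the vehicle levels above it went to 114, 117 and 114 FPKM in wild-type and 98.7, 104 and 106 FPKM in PARP3-/- pyridostatin libraries, below every vehicle library of the same genotype. The log2 fold change was -0.29 (SE 0.0513, adjusted p = 0.0108) in wild-type and -0.25 (adjusted p = 0.0181) in PARP3-/- cells. SLC7A5 and SLC3A2, whose windows also hold the G-run pattern, gave 0.02 and -0.04 in wild-type and 0.12 and -0.03 in PARP3-/- cells, none past the threshold. Of the members called by genotype that have a window, 8 of 23 with vehicle and 6 of 20 with pyridostatin held the pattern, beside 52 of all 129 member windows (40.3%). Of those called by pyridostatin, 2 of 7 in wild-type and 1 of 5 in PARP3-/- cells held the pattern. How many of all called genes hold it was not counted. SLC38A6, of a family of neutral amino acid carriers, fell by 0.30 in wild-type cells (adjusted p = 0.0408), and SLC25A45 of the mitochondrial family and SLC24A1 rose by 0.31 and 0.30 (adjusted p = 0.0475 and 0.04997). In PARP3-/- cells they gave -0.15, 0.11 and 0.09, none past the threshold. SLC1A4 fell by 0.20 in PARP3-/- cells (adjusted p = 0.0335) and gave -0.08 in wild-type cells.

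**Figure D5:**
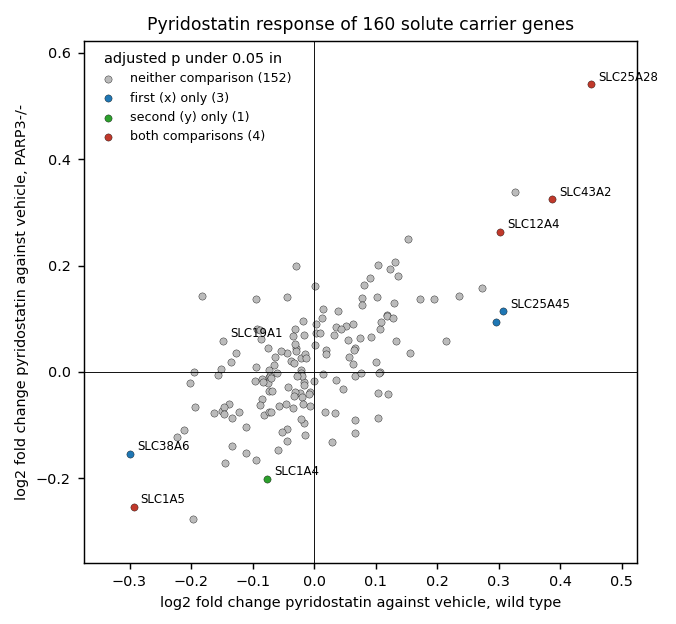
Log2 fold change of pyridostatin against vehicle in wild-type (horizontal) and PARP3-/- cells (vertical) for each of the 160 members. Colour gives the genotype in which a member passed the test; the 4 members past it in both are SLC25A28, SLC43A2 and SLC12A4 at the upper right and SLC1A5 at the lower left, with SLC25A28 the farthest from 0 on both axes.

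The treatment comparisons in the 2 genotypes share no library either, though they too took their estimate of spread from the fit of all 12 libraries. The 4 members called in both, 57.1% of the wild-type list and 80.0% of the PARP3-/- list, moved in the same direction, and the responses of all 160 members correlated at r = 0.685 (rho = 0.578) as a description across genes. Without wild-type vehicle replicate 2 there were 6 calls in wild-type and 11 in PARP3-/- cells, with 5.94% and 13.1% of all genes called. A fit of only the wild-type libraries gave 1 call (0.547% of all genes) and one of only the PARP3-/- libraries 6 (7.42%). In wild-type cells quantile normalization gave 3 higher with 4 lower, beside 306 and 186 over all genes. A median shift gave 3 higher with 7 lower, beside 246 and 294 over all genes. The wild-type calls of SLC38A6, SLC25A45, SLC24A1, SLC1A5, SLC12A4 and SLC25A28 and the PARP3-/- calls of SLC1A4 and SLC1A5 were lost under at least 1 alternative. In wild-type cells SLC12A4 and SLC25A28 were each lost in 1 of 20 and SLC1A5 in 2 of 20. SLC38A6 was lost in 14 of 20, and SLC24A1 and SLC25A45 each in 15 of 19. In PARP3-/- cells SLC1A5 was lost in 4 of 20 and SLC1A4 in 10 of 20. SLC43A2 passed in both genotypes under each alternative that tested it.

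Whether the genotype changes the response to pyridostatin was asked with the interaction term. No member passed (0 of 160, and 0% of all genes), and the smallest adjusted p over the members was 0.999. At an unadjusted p under 0.05 the limma fit gave 7 members (4.38%), against 4.39% of all genes. The members with the smallest p were the reduced folate carrier SLC19A1 (0.21, SE 0.0617, unadjusted p = 0.00659), the mitochondrial ATP-magnesium and phosphate carrier SLC25A25 (-0.16, unadjusted p = 0.0187) and the heme carrier SLC48A1 (0.17, unadjusted p = 0.0272), in log2 units. For the carriers with the clearest main differences the 95% interval of the interaction was -0.24 to 0.18 for SLC2A3, -0.02 to 0.23 for SLC7A5, -0.14 to 0.33 for SLC25A28 and -0.12 to 0.20 for SLC1A5. With 3 libraries per group the median SE of an interaction was 0.09 in log2 units, so a modest difference in response was not detectable.

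Other transporters were read beside the members. Of 42 listed genes with another letter in the symbol or of the SLCO family, 25 were tested. With vehicle SLCO3A1, SLC35G2 and SLC35F3 rose in PARP3-/- cells, with pyridostatin SLCO3A1, SLC18B1 and SLC35F3 rose, and none fell, so 3 of 25 passed in each treatment, beside 9.41% and 10.9% of all genes. Pyridostatin changed none of the 25 in wild-type cells, and SLC35D2 and SLC35E3 rose in PARP3-/- cells, beside 4.17% and 5.56% of all genes. Of 19 partner proteins and other carriers, the outer mitochondrial membrane channel VDAC2 was lower in PARP3-/- cells in both treatments (188.8 ± 16.7 to 158.8 ± 4.10 FPKM with vehicle, log2 fold change -0.24, adjusted p = 0.0194). EMB, a chaperone of monocarboxylate carriers, was higher in PARP3-/- than in wild-type cells when both had pyridostatin (0.52, adjusted p = 0.0193). BSG, the main chaperone of that family, had 328.4 ± 26.6 FPKM in wild-type and 310.6 ± 12.5 FPKM in PARP3-/- vehicle libraries (log2 fold change -0.08, adjusted p = 0.494).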

How the data were processed

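RNA-seq libraries from wild-type and PARP3-/- A549 cells, 3 per group in 4 groups, were prepared by the authors with a stranded mRNA kit and sequenced as single-end 75-base reads. The authors deposited FPKM values, 1 column per library with no pooling, in a table named for Cufflinks. The submitters' processing notes name bcl2fastq 2.16, STAR 2.5 and Cufflinks, and the builds hg19 and mm9, with no role given. The strand setting and annotation are not given in the sources used here. The study tested counts with DESeq2, and those counts were not used here.

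Of 25365 rows, the 11881 whose level averaged 1 FPKM or more were tested. limma 3.58.1 in R 4.3.3 fitted 1 model of the 4 groups to log2(FPKM + 1), using eBayes with a trend. The Benjamini-Hochberg adjustment ran over all genes tested. A gene was called at an adjusted p under 0.05. Fold changes on this scale understate changes of low genes, and ratios of mean FPKM are given beside some. p-values set a group difference against the spread between these libraries, estimated over all 4 groups. They do not cover the spread between clones. The limma step was tested on simulated data. Members and lists were chosen with earlier results of these data known.

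Named genes were up to 12 risers and 12 fallers per genotype comparison, up to 8 and 8 per pyridostatin comparison (by log2 fold change among those called), the 3 smallest interaction p, the 10 most abundant members and the most abundant member of each class. SLC38A7, SLC1A1, SLC16A4, SLC39A13, SLC12A7, SLC12A2, SLC7A6 and SLC29A3 were named after their values were seen. A gene that the rule names is counted among the members but not reported here. Classes follow family numbers alone. Depth is approximate: it was estimated from low FPKM values that are whole multiples of 1 read, with GENCODE 29 transcript lengths, over 327 genes. Of low values, 17.3% to 22.0% lay at the common step. Shared sequence and overlaps came from GENCODE 29 on GRCh38, and promoters from RefSeq on GRCh38.p14. Alternatives were a pseudocount of 0.1, no filter on low values or one at 5 FPKM, quantile normalization, a median shift, only the libraries compared, no trend, fold thresholds of 0.58 and 1, the replicate number as a block, and each library left out. Python 3.11.15, numpy 2.4.6, pandas 2.3.3 and matplotlib 3.10.9 were used.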

Additional observations from a re-analysis of the deposited data

Results flagged for a closer look

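For 3 members all libraries of one group moved one way and all libraries of the other the opposite way. How many of all genes do so was not counted, so the 3 are not read as a result about the members. SLC19A1, the reduced folate carrier, was lower with pyridostatin in all wild-type libraries (log2 fold change -0.149) and higher in all PARP3-/- libraries (0.0592), so its genotype difference was -0.0795 with vehicle and 0.129 with pyridostatin. SLC25A25, a mitochondrial carrier, was higher in all PARP3-/- libraries with vehicle (0.0679) and lower in all with pyridostatin (-0.0893). SLC1A1, a glutamate carrier at the 1 FPKM threshold, was higher with pyridostatin in wild-type (0.104) and lower in PARP3-/- libraries (-0.0864). The interaction was tested with limma for each of the 3 and none passed, with adjusted p = 0.999.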

How the results depend on the processing

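No named value reversed: of 1095 values of named members under the alternatives, 950 kept their side of the threshold and 145 fell short of it. The number of members called was 28 with vehicle and 26 with pyridostatin for genotype, and 7 in wild-type and 5 in PARP3-/- cells for pyridostatin. In the same order, 9.41%, 10.9%, 4.17% and 5.56% of all genes were called. With a mean of at least 5 FPKM, which leaves fewer genes to test, the member counts became 16, 15, 4 and 3 (all genes 8.85%, 10.5%, 4.84% and 7.12%). With only the libraries compared they were 11, 33, 1 and 6 (4.48%, 13.7%, 0.547% and 7.42%). An absolute log2 fold change above 0.58, for which no share of all genes is given, left 4, 3, 0 and 0. One above 1, in the main fit, left 1, 1, 0 and 0 (0.362%, 0.396%, 0.0505% and 0.0673%). Leaving out 1 library gave 13 to 35, 18 to 42, 4 to 6 and 3 to 11. The shares of all genes then were 6.28% to 13.8%, 6.78% to 19.3%, 1.5% to 5.94% and 2.14% to 13.1%. The vehicle count was 13 without PARP3-/- vehicle replicate 2 and 16 without replicate 3, and the pyridostatin count was 42 without wild-type vehicle replicate 2. In wild-type cells pyridostatin gave 4 without PARP3-/- vehicle replicate 2 or 3, wild-type pyridostatin replicate 1 or PARP3-/- pyridostatin replicate 3. In PARP3-/- cells it gave 11 without wild-type vehicle replicate 2 and 3 without PARP3-/- vehicle replicate 2 or 3 or PARP3-/- pyridostatin replicate 1 or 2. The interaction gave 0 under each alternative that was run. The cause of these shifts was not tested.

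The main fit did not pair libraries by replicate number. Same-numbered libraries correlated at -0.120 to 0.216 in their deviations from group means, with 2 of 12 over 0.1. Of 6 libraries, 6 and 2 correlated best with their own number for genotype (vehicle, then pyridostatin), and 2 and 5 in the pyridostatin comparisons in wild-type and PARP3-/- cells, a hint from the data and not the design. With the number as a block the counts were 26, 27, 5 and 6 (all genes 8.85%, 10.2%, 3.46% and 4.96%), and the wild-type calls of SLC24A1, SLC25A45 and SLC38A6 were lost. Depth, approximate here, limits members near 1 FPKM such as SLC8A1 and SLC24A1.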
